A study of Mus musculus with 2 samples.

Results

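The genes described here are 7 that accompany the FR4 and CD73 surface pair on CD4 T cells, out of the 27998 genes listed in the matrices: Izumo1r, which encodes folate receptor 4 (FR4), Nt5e, which encodes CD73, and Nrn1, Tbc1d4, Angptl2, Gpm6b and Marcksl1. They were chosen by name, from a description of these same cells in which their levels and their co-occurrence in CD4 T cells had already been seen. Those levels are therefore given as a description, without a test. The cells came from the islets of female NOD/ShiLtJ mice and were sorted for CD45.1 on a flow cytometer. NOD/ShiLtJ is an inbred strain that develops autoimmune diabetes spontaneously. One group was 12 weeks old and the other 7 weeks old. The mice of both groups carried no other stated allele or treatment, and the number of mice behind each group is not given in the sources used here. Each age is 1 droplet library (10x Genomics Chromium, 3' chemistry), so every difference between ages is a difference between 2 libraries.

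Anergy is a state in which a T cell that has met its antigen stays alive but responds poorly to meeting it again. In mice, FR4 and CD73 at high levels on Foxp3-negative CD4 T cells mark such cells, and FR4 is also high on regulatory T cells, the suppressive lineage defined by the transcription factor Foxp3. FR4 is a glycosylphosphatidylinositol-anchored relative of the folate receptors, and CD73 is an anchored ectoenzyme that converts extracellular AMP to adenosine, a nucleoside that dampens T cell responses. Nrn1 encodes neuritin, a small anchored protein first studied in neurons and also made by regulatory and anergic T cells. Tbc1d4 encodes a Rab GTPase-activating protein known for control of glucose transporter traffic in muscle and fat. Angptl2 encodes a secreted angiopoietin-like glycoprotein, Gpm6b a proteolipid-family membrane protein of neurons and glia, and Marcksl1 a MARCKS-family protein that binds actin and calmodulin.

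The 7 genes lie on 6 chromosomes, and none overlaps another of them. In GENCODE vM21 (GRCm38), Izumo1r lies on the minus strand at chr9:14885814-14903949 and Nt5e on the plus strand at chr9:88327197-88372092. Nrn1 lies at chr13:36725361-36735131 (minus) and is overlapped on the opposite strand by Fars2 and Gm30177. Tbc1d4 lies at chr14:101442360-101609191 (minus) and overlaps the pseudogene Gm34417 on its own strand. Angptl2, at chr2:33216069-33247717 (plus), lies within Ralgps1, which runs the other way. Gpm6b lies at chrX:166238911-166388988 (plus) and Marcksl1 at chr4:129513581-129515985 (plus). The annotation used for counting, and whether counting used strand, are not given in the sources used here. Whether reads of the overlapping genes entered the counts of Nrn1, Tbc1d4 and Angptl2 was therefore not checked.

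RefSeq (GRCm38.p6) gave the promoter, 250 bases before to 50 bases after the RefSeq start of the gene, for 6 of the 7 genes. The RefSeq start can differ from the GENCODE start given above, and the Nt5e window lies wholly inside the GENCODE gene. The promoters of the surface pair, and that of Gpm6b, are printed because Izumo1r, Nt5e and Gpm6b were higher together in cells rich in the inhibitory receptor Lag3, while their start regions hold different letters. They lie at chr9:14903718-14904017 (minus), chr9:88327359-88327658 (plus) and chrX:166238693-166238992 (plus) and are written 5′ to 3′ along the gene. Capitals mark letters that match a searched motif on either strand, TTTCC being the reverse complement of GGAAA and CACCTG that of CAGGTG.
Izumo1r: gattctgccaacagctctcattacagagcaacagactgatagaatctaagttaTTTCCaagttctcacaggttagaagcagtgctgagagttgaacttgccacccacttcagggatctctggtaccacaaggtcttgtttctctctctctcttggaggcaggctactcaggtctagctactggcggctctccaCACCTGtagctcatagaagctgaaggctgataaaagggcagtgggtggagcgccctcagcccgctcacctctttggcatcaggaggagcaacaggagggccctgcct
Nt5e: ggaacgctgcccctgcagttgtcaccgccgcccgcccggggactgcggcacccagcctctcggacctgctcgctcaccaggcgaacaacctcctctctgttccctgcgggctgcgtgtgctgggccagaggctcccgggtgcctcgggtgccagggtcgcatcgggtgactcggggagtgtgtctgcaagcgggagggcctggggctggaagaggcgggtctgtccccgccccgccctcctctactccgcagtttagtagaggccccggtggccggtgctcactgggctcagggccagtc
Gpm6b: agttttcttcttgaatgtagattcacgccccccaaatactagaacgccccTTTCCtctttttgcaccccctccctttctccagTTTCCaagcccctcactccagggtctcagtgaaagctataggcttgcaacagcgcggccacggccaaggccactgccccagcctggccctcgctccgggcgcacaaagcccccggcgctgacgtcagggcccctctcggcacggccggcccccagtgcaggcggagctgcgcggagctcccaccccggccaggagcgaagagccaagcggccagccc
The 7 motifs searched were the NFAT core GGAAA, the E-box CAGGTG, the AP-1 motif TGANTCA, the EGR motif GCGNGGGCG, the NR4A motif AAAGGTCA, the TCF/LEF motif CTTTGA and the TATA box TATAAA. The NFAT core was present in 3 of the 6 promoters (Izumo1r, Gpm6b and Marcksl1), against 61.3% of 32851 promoters of the same length. The E-box CAGGTG was present in 1 of 6 (Izumo1r), against 20.2% of all promoters. AP-1 (7.81% of all promoters), EGR (5.55%), NR4A (1.51%), TCF/LEF (16%) and TATA (13.6%) letters were in 0 of the 6 windows. A match of letters is a description and no match concerns this window only.

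Cells were assigned by counts of unique molecular identifiers (UMIs, 1 per captured RNA molecule). CD4 T cells had at least 1 Cd4 UMI and none of Cd8a, Cd8b1 or Cd79a, and were divided into cells with at least 1 Foxp3 UMI (Foxp3-positive) and cells with none (Foxp3-negative). CD8 T cells had at least 2 UMIs of Cd8a and Cd8b1 and none of Cd4, and B cells at least 2 of Cd79a. A cell with no Foxp3 UMI may still carry Foxp3 RNA. Of 2741 cells kept at 12 weeks (median 4933 UMIs) and 1099 at 7 weeks (median 5636), 50 and 45 were Foxp3-positive CD4 T cells, 727 and 298 Foxp3-negative CD4 T cells, 472 and 176 CD8 T cells and 674 and 183 B cells. The libraries shared 2 barcodes. Levels are UMIs of a gene relative to all UMIs of the gate, as counts per 1000000 (CPM). Every interval in parentheses is at 95% and reflects counting error alone, with the variation among mice and libraries left unmeasured.

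The gate was checked against T cell markers. A Cd3d, Cd3e or Cd3g UMI was present in 96.7% and 98.3% of Foxp3-negative CD4 T cells at 12 and 7 weeks, and in 100% and 100% of the Foxp3-positive cells, against 28.2% and 37.2% of B cells. A set of cells stood apart inside the Foxp3-negative gate: 38 cells at 12 weeks and 16 at 7 weeks held 20 or more UMIs of the MHC class II genes H2-Aa, H2-Ab1, H2-Eb1 and Cd74, which antigen-presenting cells express. Their median number of CD3 UMIs was 0 and 2, against 15 and 20 in the rest of the gate, and their median totals were 11157 and 13374 UMIs, against 4526 and 5584.5. They made up 5.23% and 5.37% of the cells and 10.6% and 8.42% of the UMIs. Without them 6 of the 7 genes had a higher CPM in the gate at both ages. Marcksl1 was lower without them, and 217 of its 500 UMIs in the gate at 12 weeks and 53 of 261 at 7 weeks were in these cells. The Foxp3-positive gate held 0 such cells at 12 weeks and 6 at 7 weeks, with 26.6% of its UMIs at 7 weeks. Because the gates above were stated by counts of the named genes alone, values are given for the whole gate and, where a result turns on these cells, without them.

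**Figure D1:**
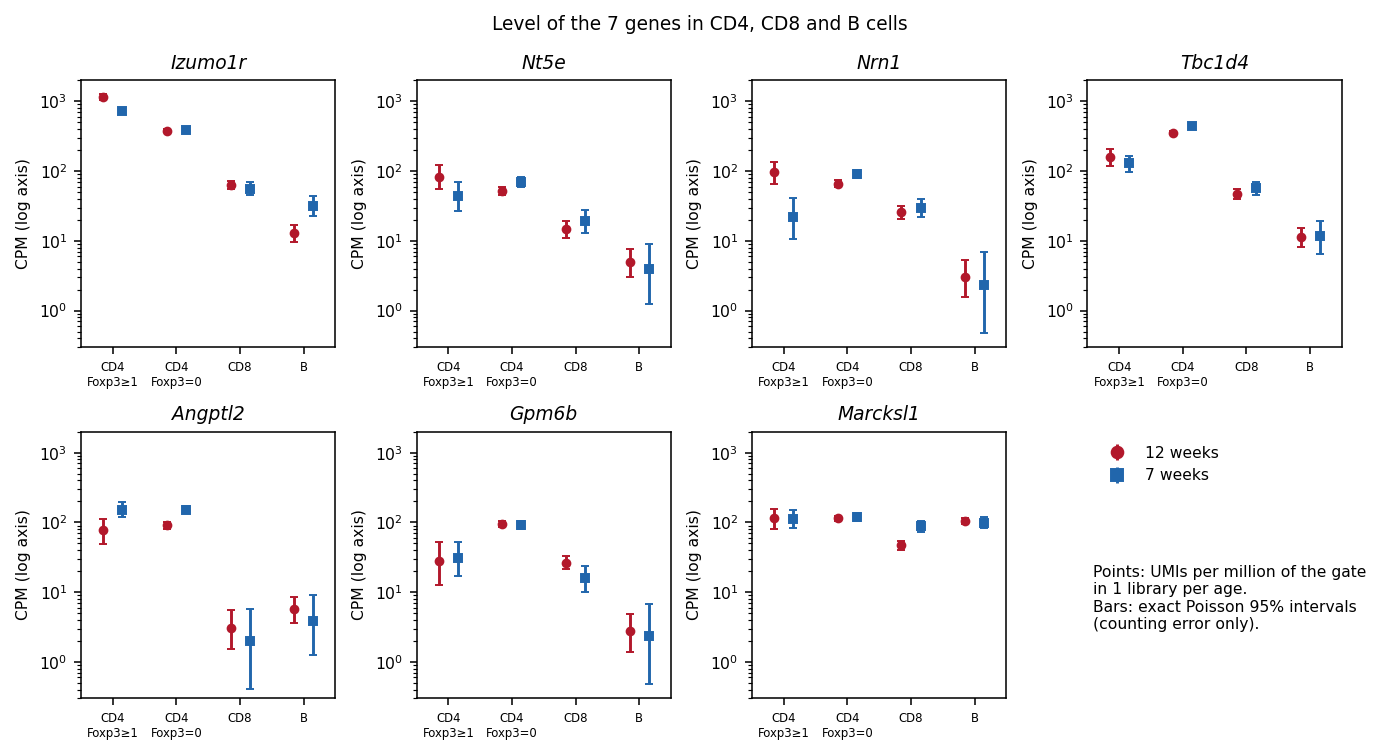
Level of each of the 7 genes (CPM, log axis) in Foxp3-positive CD4 T, Foxp3-negative CD4 T, CD8 T and B cells at 12 weeks (red circles) and 7 weeks (blue squares), with exact Poisson 95% intervals as bars. In the panels of 6 genes, CD8 T and B cells lie below Foxp3-negative CD4 T cells at both ages, and Marcksl1 stays at about 100 CPM in B cells.

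The surface pair was a CD4 T cell signal at both ages. Izumo1r was at 376 CPM (358 to 394) at 12 weeks and 382 CPM (356 to 408) at 7 weeks in Foxp3-negative CD4 T cells, against 62.7 and 55.9 CPM in CD8 T cells and 13 and 31.9 CPM in B cells. Nt5e was at 51.4 CPM (44.9 to 58.6) and 70.2 CPM (59.5 to 82.2) in Foxp3-negative CD4 T cells, against 14.8 and 19.1 CPM in CD8 T cells and 5 and 3.89 CPM in B cells. The CD4 over CD8 ratio was thus 5.99 and 6.83 for Izumo1r and 3.46 and 3.68 for Nt5e, with no overlap of the counting intervals. With every cell thinned to 2500 UMIs, an Izumo1r UMI was found in 41% and 46.6% of Foxp3-negative CD4 T cells, 9.96% and 8.52% of CD8 T cells and 1.63% and 4.37% of B cells (51.4% and 65.1% of Foxp3-negative CD4 T cells before thinning). The B cell share is the reading of a gate outside the T cells, at a median depth of 4691.5 and 5305 UMIs, against 4645 and 5609.5 in Foxp3-negative CD4 T cells. For Nt5e the thinned shares were 11.4% and 18.5%, 4.45% and 5.11%, and 1.04% and 1.09% in the same order of gates (21.2% and 35.6% unthinned in the CD4 gate).

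The other surface and signalling genes followed the same order of gates. Neuritin (Nrn1) was at 66 and 90.3 CPM in Foxp3-negative CD4 T cells, against 25.8 and 29.6 CPM in CD8 T cells and 3 and 2.33 CPM in B cells. Its UMIs were unevenly spread over cells: at 7 weeks 1 cell held 50 of the 197 UMIs, and the level without that cell was 67.8 CPM. Tbc1d4 was at 356 CPM (339 to 374) and 439 CPM (412 to 468) in Foxp3-negative CD4 T cells, against 46.8 and 57.2 CPM in CD8 T cells and 11.3 and 11.7 CPM in B cells. Tbc1d4 RNA was broadly spread over the gate, with a thinned UMI in 39.8% and 49% of its cells. Gpm6b was at 96 and 92.2 CPM in Foxp3-negative CD4 T cells, against 26.6 and 15.8 CPM in CD8 T cells and 2.75 and 2.33 CPM in B cells. It was not a T cell gene alone, since cells gated on the plasmacytoid dendritic marker Siglech (32 and 19 cells) had 93.3 CPM (59.8 to 139) and 47 CPM (23.5 to 84.1). These intervals overlapped those of the CD4 gate at both ages (87 to 106 and 79.9 to 106), narrowly at 7 weeks.

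Angptl2 had the sharpest boundary between CD4 and CD8 T cells. It was at 90.5 CPM (81.8 to 99.8) at 12 weeks and 153 CPM (137 to 170.5) at 7 weeks in Foxp3-negative CD4 T cells, against 3.08 and 1.97 CPM in CD8 T cells and 5.75 and 3.89 CPM in B cells. The CD4 over CD8 ratio was 29.4 and 77.6. After thinning, an Angptl2 UMI was found in 11.6% and 21.5% of Foxp3-negative CD4 T cells, against 0 of 472 CD8 T cells at 12 weeks, which at the thinned depth allows a share of up to 0.636%, and 0.568% of them at 7 weeks. Before thinning, 9 and 3 CD8 T cells held an Angptl2 UMI. Foxp3-negative CD4 T cells made up 26.5% and 27.1% of the kept cells and held 63% and 68.6% of all Angptl2 UMIs of the libraries.

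Marcksl1 departed from the pattern. It was at 114 CPM (104 to 125) and 119.7 CPM (106 to 135) in Foxp3-negative CD4 T cells, against 47.3 and 87.5 CPM in CD8 T cells and 105 CPM (94.7 to 115) and 99.6 CPM (83.1 to 118) in B cells, so the CD4 and B cell intervals overlapped at both ages. Without the MHC class II-high cells it was at 72.3 CPM (64.1 to 81.2) and 104 CPM (90.5 to 119) in Foxp3-negative CD4 T cells, against 23.1 and 17.7 CPM in CD8 T cells. A single CD8-gated cell held 55 Marcksl1 UMIs at 12 weeks and another held 69 at 7 weeks. Macrophage-gated cells (27 and 8 cells) had 937 and 821 CPM, above every T and B cell gate.

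Over the transcriptome, 5.86% of 8561 genes were at least 1.5-fold higher in Foxp3-negative CD4 T cells than in CD8 T cells in both libraries, and 6 of the 7 genes were among them. Marcksl1 was the one short of the fold, at 2.41 and 1.37, and without the MHC class II-high cells 7 of 7 were past it. Against B cells, 15.5% of 8476 genes were past that fold, including the same 6, and Marcksl1 stood at 1.09 and 1.2. These counts describe the choice of the genes, which used these levels.

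Foxp3-positive CD4 T cells carried more FR4 RNA and less Tbc1d4 and Gpm6b RNA. Izumo1r was at 1144 CPM (1030.4 to 1266) at 12 weeks and 729.8 CPM (653 to 813) at 7 weeks in Foxp3-positive cells, against 376 and 382 CPM in Foxp3-negative cells, a ratio of 3.04 and 1.91. Nearly every Foxp3-positive cell held an Izumo1r UMI, 96% and 95.6% of them before thinning and 90% and 71.1% after. Of 7826 genes, 5.44% were at least 1.5-fold higher in Foxp3-positive cells in both libraries, and of the 7 Izumo1r was the only one among them. Tbc1d4 was lower, at 159.9 and 129 CPM in Foxp3-positive cells against 356 and 439 CPM in Foxp3-negative cells (ratios of 0.449 and 0.293). Gpm6b was lower as well, at 27.7 and 31.1 CPM against 96 and 92.2 CPM (0.288 and 0.337). These 2 genes were past the fold downwards, against 4.43% of all genes.

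CD73 and neuritin did not keep 1 direction across the libraries. Nt5e was at 83 CPM (54.7 to 121) in 12 week Foxp3-positive cells against 51.4 CPM in Foxp3-negative cells, and at 44.4 CPM (27.1 to 68.5) against 70.2 CPM at 7 weeks. Nrn1 was at 95.3 CPM against 66 CPM at 12 weeks, where 1 of the 50 Foxp3-positive cells held 14 of 31 UMIs, and at 22.2 CPM against 90.3 CPM at 7 weeks. Angptl2 was at 76.9 and 153 CPM in Foxp3-positive cells, against 90.5 and 153 CPM in Foxp3-negative cells, and Marcksl1 at 114 and 113 CPM against 114 and 119.7 CPM. For neither did the intervals separate the gates at either age. The 6 MHC class II-high cells bear on the 7 week values: without them and without those of the Foxp3-negative gate, Izumo1r was at 913 CPM (813 to 1022) against 411 CPM, and Marcksl1 at 27.2 CPM (12.4 to 51.7) against 104 CPM. At 12 weeks Marcksl1 was then at 114 CPM in Foxp3-positive cells against 72.3 CPM in Foxp3-negative cells.

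In the gene lists, a gene counted as measured when it had at least 20 UMIs over both gates in each library. Among the 20 listed anergy regulators, 3 of 17 measured genes were at least 1.5-fold higher in Foxp3-positive cells in both libraries and 3 were lower. The higher ones were the orphan nuclear receptors Nr4a1 (ratios of 2.41 and 2.32) and Nr4a3 (6.73 and 2.42) and the Ikaros-family factor Ikzf3 (1.84 and 1.8). The lower ones were the diacylglycerol kinases Dgka (0.665 and 0.52) and Dgkz (0.404 and 0.526), which damp T cell receptor signals, and the surface protein Cd200 (0.608 and 0.649). Of 8 measured genes of adenosine production and uptake other than Nt5e, the nucleoside transporter Slc28a2 (2.73 and 2.61) and the purine phosphorylase Pnp (2.4 and 2.09) were higher and 0 were lower. Of 12 measured regulatory T cell genes, Foxp3 itself among them, 11 were higher and 0 lower.

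Lag3, an inhibitory receptor that binds MHC class II, also divided Foxp3-negative CD4 T cells. Cells with at least 5 Lag3 UMIs (Lag3-high) numbered 121 at 12 weeks and 57 at 7 weeks, against 606 and 241 with at most 4 (Lag3-low). Just inside the limit, 17 and 12 cells held exactly 5 Lag3 UMIs, and just outside it 22 and 6 held exactly 4. Lag3-high cells were deeper, with a median of 5948 and 6834 UMIs against 4514.5 and 5473. Because the limit is a count, a deeper cell passes it more easily, and a limit set relative to depth is given further on.

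Of the 7 genes, 5 were higher in Lag3-high cells at both ages, led by Angptl2. Angptl2 was at 182 CPM in Lag3-high cells against 65.1 CPM in Lag3-low cells at 12 weeks (ratio 2.79), and at 337 against 96.6 CPM at 7 weeks (3.49). Izumo1r was at 706 against 284 CPM (2.49) and at 529.8 against 336 CPM (1.58). Nt5e was at 89.4 against 40.9 CPM (2.19) and at 113 against 57 CPM (1.98). Both genes of the surface pair were thus higher on the Lag3-high side, with Izumo1r nearer to the 1.5-fold limit at 7 weeks. Gpm6b was at 168 against 75.9 CPM (2.22) and at 175 against 66.6 CPM (2.63), and Tbc1d4 at 517 against 311 CPM (1.66) and at 653 against 374 CPM (1.75). Nrn1 was at 79.9 against 62.2 CPM (1.28) at 12 weeks and 175 against 64.2 CPM (2.73) at 7 weeks, where the Lag3-high level was 79.9 CPM without the cell that held 50 UMIs. Marcksl1 was at 116 against 114 CPM (1.02) and at 131 against 116 CPM (1.12). Of 7317 genes, 4.41% were past the fold upwards and 4.87% downwards in both libraries, and of the 7 genes 5 were past it upwards and 0 downwards.

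With the limit set at 10 Lag3 UMIs per 10000 UMIs of the cell, depth no longer favoured the high side, and Angptl2 lost its difference at 7 weeks. The high side then held 98 and 29 cells (median 4617 and 5057 UMIs), against 629 and 269 on the low side (4649 and 5643). Angptl2 was at 232 CPM on the high side against 70.6 CPM at 12 weeks (3.29, 2.64 to 4.08), and at 188 against 150.1 CPM at 7 weeks (1.25, 0.846 to 1.8). The other 4 genes kept ratios past the fold: Izumo1r at 3.37 and 1.79, Nt5e at 2.31 and 2.12, Gpm6b at 2.99 and 2.49, and Tbc1d4 at 1.54 and 1.65. Marcksl1 was at 98.5 against 116 CPM (0.846) at 12 weeks and, with 5 UMIs on the high side, at 28.5 against 128 CPM (0.223) at 7 weeks.

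**Figure D2:**
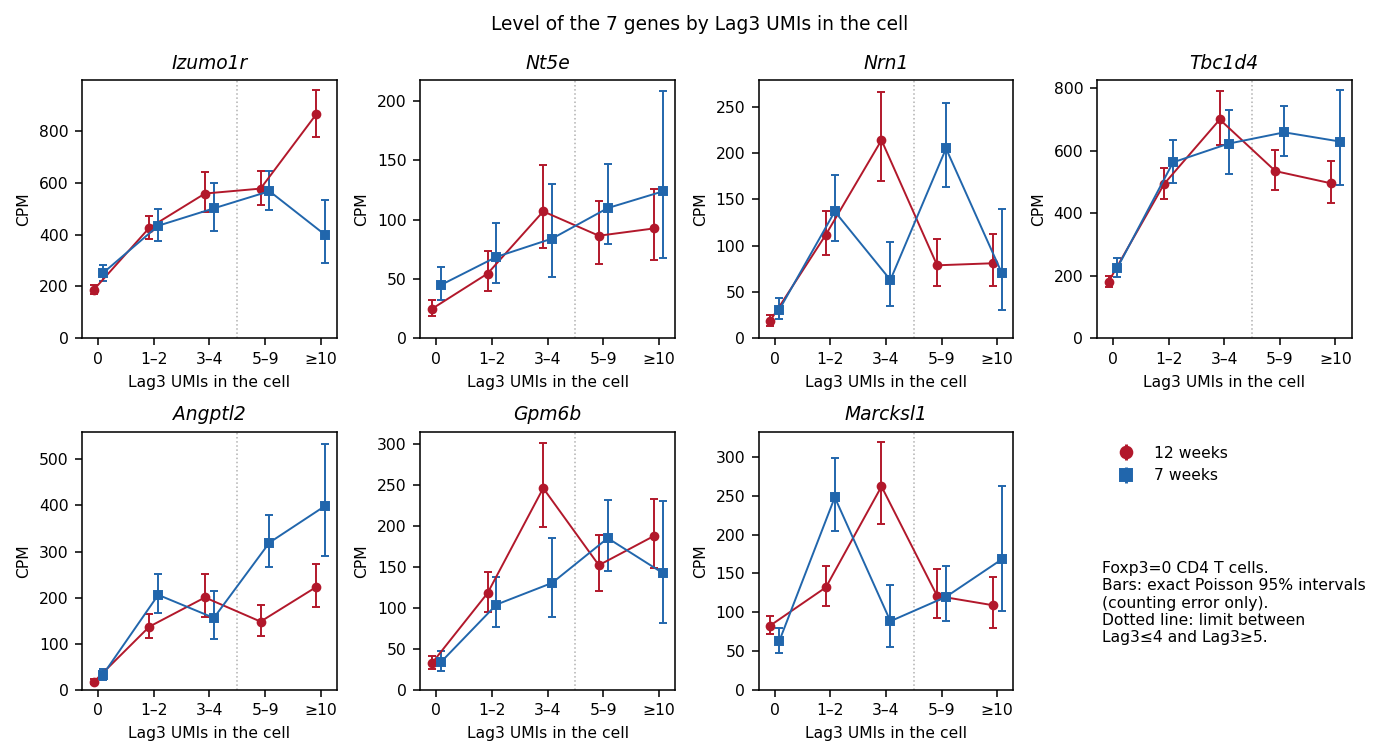
Level of each gene (CPM, with exact Poisson 95% intervals) in Foxp3-negative CD4 T cells binned by Lag3 UMIs (0, 1 to 2, 3 to 4, 5 to 9 and 10 or more), at 12 weeks (red circles) and 7 weeks (blue squares). The dotted line stands between Lag3-low and Lag3-high cells, and the step for most genes lies to its left, between 0 and 1 to 2 Lag3 UMIs.

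The finer bins put much of the difference below the limit. In cells with 0, 1 to 2, 3 to 4, 5 to 9 and 10 or more Lag3 UMIs (432, 118, 56, 62 and 59 cells at 12 weeks), Tbc1d4 was at 181, 494, 700.1, 535 and 496 CPM. At 7 weeks (155, 59, 27, 44 and 13 cells) it was at 226, 563, 623, 659 and 629.6 CPM. Tbc1d4 was therefore lowest in cells with no Lag3 UMI and not ordered among the bins above that. Angptl2 was at 16.9, 137, 200.4, 148 and 223 CPM at 12 weeks and at 31.7, 206, 156, 319.5 and 399 CPM at 7 weeks. Izumo1r was at 187, 426, 558, 577 and 863 CPM at 12 weeks, an increase in every step, and at 250.4, 434, 501, 567 and 399 CPM at 7 weeks, where the bin of 13 cells broke the order. Gpm6b was at 32.5, 118, 246, 152 and 188 CPM at 12 weeks and at 33.7, 104, 130.4, 185 and 142 CPM at 7 weeks. Nt5e was at 24.9, 54.6, 107, 86.5 and 92.7 CPM and at 45, 68.7, 84.1, 109.8 and 124 CPM, and only its 7 week series increased throughout.

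**Figure D3:**
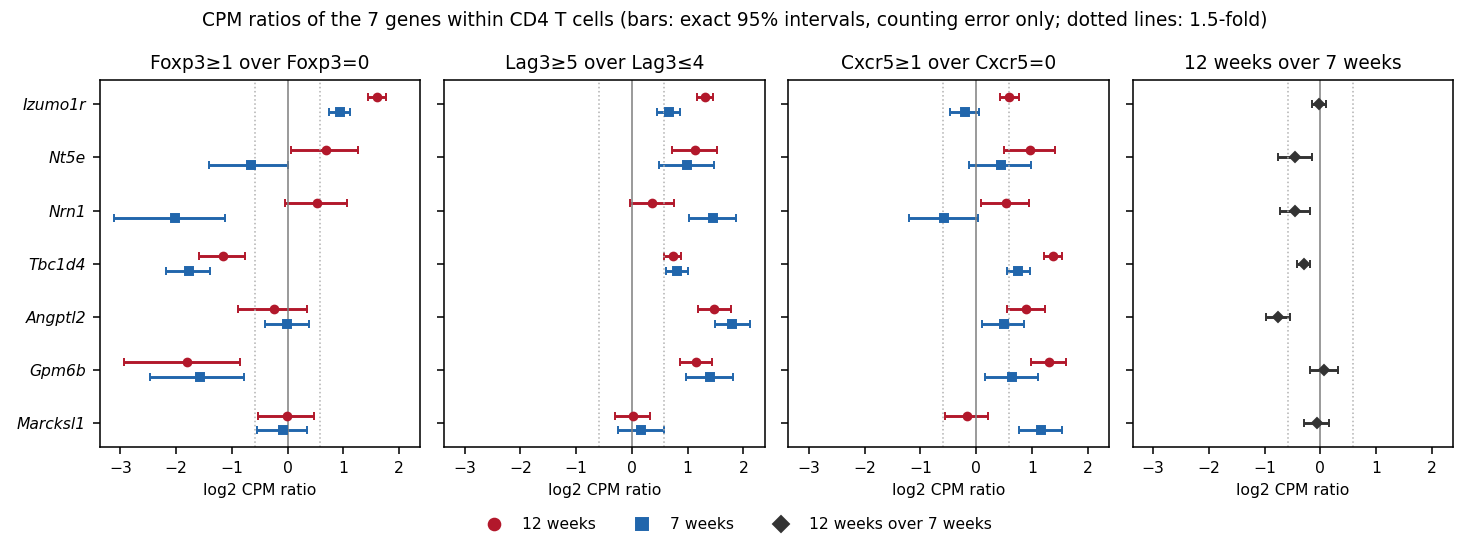
Log2 CPM ratios of the 7 genes with exact conditional 95% intervals, for Foxp3-positive over Foxp3-negative CD4 T cells, Lag3-high over Lag3-low cells, cells with over cells without a Cxcr5 UMI, and 12 over 7 weeks. Dotted lines mark the 1.5-fold limit. Izumo1r is the only gene past it to the right in the Foxp3 panel at both ages, and 5 genes are in the Lag3 panel.

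Genes on the list of anergy regulators differed with Lag3 as well, and whether the cells were anergic was not tested. Of 20 listed anergy regulators 16 were measured, of which 10 were higher in Lag3-high cells in both libraries and 2 lower, and the median log2 ratio was 1.03 and 0.84, against 0.11 and 0.02 over all 7317 genes. Higher were the ubiquitin ligase Cblb (2 and 1.54), the transcription factor Egr2 (2.36 and 2.19), Dgkz (2.18 and 2.06), Nfatc1 (2.08 and 1.54), the ligase adaptor Ndfip1 (3.14 and 1.72), Nr4a1 (2.83 and 2.46), Nr4a2 (1.58 and 1.86), Ikzf3 (3.6 and 2.53), Bhlhe40 (2.15 and 1.93) and Cd200. Cd200 was at 425 against 154 CPM at 12 weeks and 477 against 184 CPM at 7 weeks. Lower were Tob1 (0.514 and 0.644), which restrains T cell division, and the cytokine signal inhibitor Socs3 (0.567 and 0.427). Of 7 measured adenosine genes other than Nt5e, 3 were higher, among them Entpd1 (3.71 and 3.97), which encodes CD39 and supplies the AMP that CD73 uses, and 0 were lower.

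Other lists moved across the same limit. Regulatory T cell genes were higher for 8 of 11 measured genes and lower for 0, with a median log2 ratio of 1.76 and 0.95, although no cell of the gate held a Foxp3 UMI. A UMI of Il2ra or Ikzf2, genes of regulatory and activated T cells, was found in 62.8% and 64.9% of Lag3-high cells, against 26.7% and 46.9% of Lag3-low cells. Their part in the differences of the 7 genes was not tested. Follicular helper genes were higher for 4 of 13 and lower for 0. Effector helper T cell genes were higher for 5 of 12 and lower for 1, with a median log2 ratio of 1.27 and 0.25. Inhibitory receptors, a list that shares Cd200 with the anergy regulators and includes Lag3, were higher for 7 of 12 measured genes and lower for 1, with Ctla4 at ratios of 5.98 and 3.36 and Pdcd1 at 2.8 and 2.12. Genes of naive and memory T cells were lower for 9 of 14 and higher for 0, and a UMI of Ccr7 or Lef1 was found in 39.7% and 52.6% of Lag3-high cells against 68.8% and 55.6% of Lag3-low cells. The 10 genes furthest up by the bound of the interval nearest to 1 were the chemokines Ccl4, Ccl1 and Ccl3, the cytokines Il10 and Ifng, and Nrgn, Fam20a, Sdf4, Rgs16 and Ctla4. Il10, which encodes an immunosuppressive cytokine, was 11.1 and 11.8 times higher. Summed B cell marker RNA was at 12.2 and 16.6 UMIs per 10000 in Lag3-high cells, against 59.8 and 33 in Lag3-low cells. Summed macrophage marker RNA was at 47.7 and 1.46, against 33.7 and 9.09. The 12 week Lag3-high cells included 1 MHC class II-high cell of 34428 UMIs. Without MHC class II-high cells, 3 of 3 measured macrophage markers were lower in Lag3-high cells, at a median log2 ratio of -1.65 and -1.33. Of the MHC class II-high cells, 1 and 2 were Lag3-high and 37 and 14 Lag3-low.

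The differences were measured again without those cells, leaving 120 and 55 Lag3-high against 569 and 227 Lag3-low cells. Izumo1r was then 2.27 (2.06 to 2.51) and 1.52 (1.31 to 1.76) times higher, Nt5e 2.01 and 1.87, Tbc1d4 1.69 and 1.75, Angptl2 2.56 and 3.4 and Gpm6b 2.22 and 2.56. The same 5 genes stayed past the fold, against 4.92% of 6956 genes. Marcksl1 changed most: it was at 115 CPM in Lag3-high cells against 59.4 CPM in Lag3-low cells at 12 weeks (1.93, 1.5 to 2.47) and at 128 against 96.5 CPM at 7 weeks (1.33, 0.97 to 1.8).

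Leaving out as well the cells with a UMI of Ccr7 or Lef1, genes of naive and central memory T cells, kept 2 of the 5 genes past the fold. In the 72 and 26 Lag3-high and 157 and 95 Lag3-low cells that remained, Tbc1d4 was at 545 CPM in Lag3-high cells against 549 CPM in Lag3-low cells at 12 weeks (0.992, 0.844 to 1.16) and at 714 against 534 CPM at 7 weeks (1.34, 1.08 to 1.65). Nt5e had ratios of 1.36 and 0.921, and Gpm6b of 1.47 and 1.97. Past the fold at both ages were Izumo1r, at 878 against 442 CPM (1.98, 1.71 to 2.3) and 676 against 449 CPM (1.51, 1.21 to 1.87), and Angptl2, at 237 against 139 CPM (1.71, 1.29 to 2.25) and 568 against 146 CPM (3.9, 2.9 to 5.26), against 3.92% of 4240 genes. Of the anergy regulators measurable in these cells, 3 of 14 were past the fold upwards and 0 downwards. Of the effector helper genes, 5 of 9 were past it upwards and 0 downwards.

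**Figure D4:**
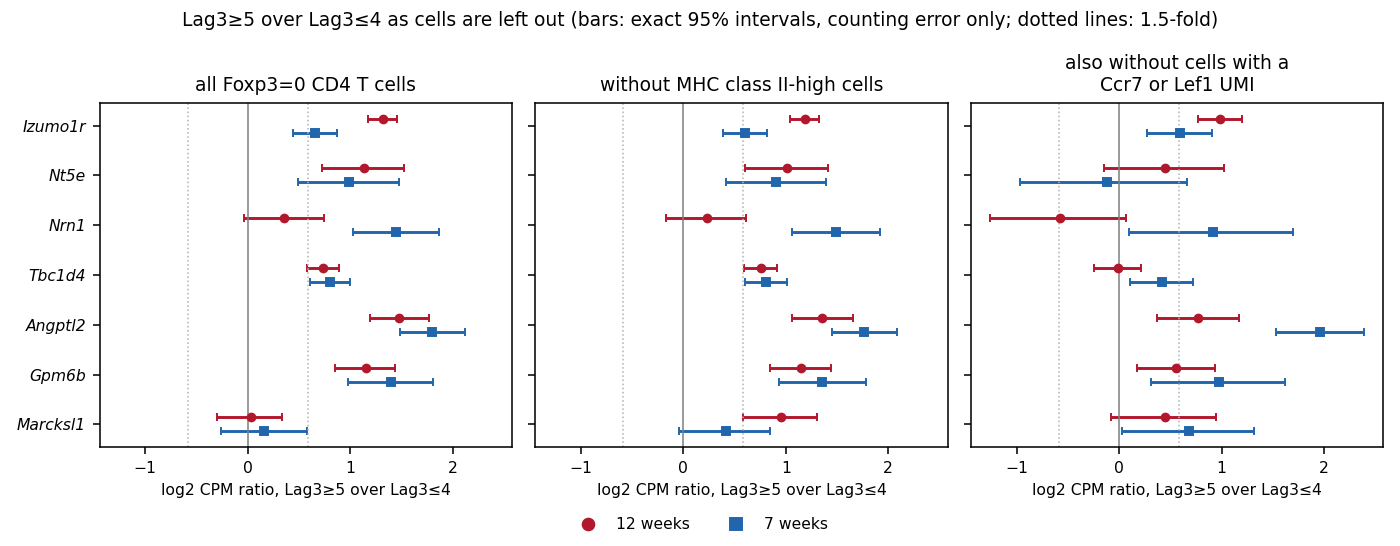
Log2 CPM ratio of Lag3-high over Lag3-low Foxp3-negative CD4 T cells, with exact conditional 95% intervals, in the whole gate, without MHC class II-high cells, and also without cells with a Ccr7 or Lef1 UMI, at 12 and 7 weeks. The log2 ratios of Tbc1d4, Nt5e and Gpm6b are nearer to 0 in the last setting than in the whole gate, Tbc1d4 at -0.01 at 12 weeks, and the intervals of Izumo1r, Angptl2 and Gpm6b remain above 0 at both ages.

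Angptl2 was also higher with Lag3 in the Foxp3-positive gate. Among 16 and 17 Lag3-high Foxp3-positive cells Angptl2 was at 191 and 313 CPM, against 18.6 and 47.8 CPM in 34 and 28 Lag3-low ones, ratios of 10.3 (3.48 to 41.3) and 6.55 (3.54 to 13.1). These ratios rest on 21 against 4 UMIs at 12 weeks and 56 against 13 at 7 weeks. Lag3-high cells were deeper here too, at a median of 6779.5 and 10099 UMIs against 5987.5 and 6775.5. A limit set relative to depth is not given for this gate. Izumo1r had ratios of 1.2 and 1.98 there and Tbc1d4 of 0.357 and 0.8.

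Cxcr5, the chemokine receptor of follicular helper T cells, was detected in 83 and 41 Foxp3-negative CD4 T cells and not in 644 and 257. Tbc1d4 and Gpm6b were higher with Cxcr5 at both ages. Tbc1d4 was at 751 CPM in Cxcr5-positive cells against 289 CPM in the others at 12 weeks (2.6) and at 657 against 388 CPM at 7 weeks (1.69), and Gpm6b at 195 against 79.1 CPM (2.47) and 130.0 against 83.3 CPM (1.56). Angptl2 was at 149.6 against 80.4 CPM (1.86) and 199.9 against 142 CPM (1.41), and Nt5e had ratios of 1.95 and 1.36. Neither reached 1.5-fold at 7 weeks. Izumo1r was at 529 against 349.8 CPM (1.51) at 12 weeks and at 339.6 against 391 CPM (0.868) at 7 weeks, opposite directions in the libraries. Nrn1 (1.45 and 0.675) and Marcksl1 (0.896 and 2.24) also pointed in opposite directions. Both depended on the cells included. In Lag3-low cells Nrn1 had ratios of 1.51 and 1.66. Without MHC class II-high cells Marcksl1 was at 83.5 CPM with Cxcr5 against 70.2 CPM without it at 12 weeks, and at 217 against 75.8 CPM at 7 weeks. Over the whole gate 2 of the 7 genes were past the fold upwards, against 4.06% of 7317 genes, and 0 downwards, against 6.05%. Gpm6b fell short of the fold at 7 weeks, at log2 ratios of 0.55 with a CD3 UMI and no Siglech or C1q UMI required, 0.37 with at least 2 Cd4 UMIs and 0.46 without each gate's 5 cells richest in it. The count was 4 in Lag3-low cells and 4 in cells without Il2ra and Ikzf2 UMIs. Cxcr5-positive cells were deeper, at a median of 5573 and 7202 UMIs against 4525 and 5530.

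The list counts for Cxcr5 stand beside those for Lag3 as follows, with no test of their difference. Among the 13 measured follicular helper genes 6 were higher with Cxcr5, which itself sets the gate, against 4 of 13 with Lag3, including Bcl6 (2.85 and 2.72), the master regulator of that lineage, Tox2 (3.26 and 2.95) and Sh2d1a (2.27 and 2.29). Of 16 anergy regulators 0 were higher and 2, Tob1 and Socs3, lower, the genes that were also lower with Lag3. Genes of naive and memory T cells were lower for 9 of 14 and higher for 2, against 9 lower and 0 higher with Lag3. Inhibitory receptors were higher for 4 of 12 and lower for 0. Regulatory T cell genes were higher for 1 of 11 and lower for 2. Effector helper genes were higher for 0 of 12 and lower for 5, against 5 higher and 1 lower with Lag3. Of 7 adenosine genes 0 were higher and Entpd1 was lower (0.285 and 0.472). All 8 measured macrophage markers were lower in Cxcr5-positive cells, and their part in these ratios was not tested.

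With the gate split by both receptors, Tbc1d4 was lowest where neither passed. It was at 859.6 and 728 CPM in Lag3-high Cxcr5-positive cells (19 and 12 cells), 431 and 623 CPM in Lag3-high Cxcr5-negative cells (102 and 45), 704 and 619 CPM in Lag3-low Cxcr5-positive cells (64 and 29) and 253 and 326 CPM in Lag3-low Cxcr5-negative cells (542 and 212). Gpm6b was at 229 and 172, 153 and 177, 181 and 108, and 60.4 and 58.7 CPM in the same order. Both genes were thus higher with either receptor. Izumo1r was at 542 and 399, 748 and 582, 524 and 308, and 248 and 341 CPM, highest at both ages in Lag3-high cells without Cxcr5. Angptl2 was at 214 and 241, 174 and 375, 122 and 178, and 56.7 and 80.8 CPM.

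Between the ages, Angptl2 was the only gene of the 7 past 1.5-fold in Foxp3-negative CD4 T cells. It was at 90.5 CPM at 12 weeks against 153 CPM at 7 weeks, a ratio of 0.591 (0.509 to 0.685). Nt5e (0.733, 0.594 to 0.906), Nrn1 (0.731, 0.608 to 0.881) and Tbc1d4 (0.811) were below 1 by less than the fold. Izumo1r (0.985, 0.906 to 1.07), Gpm6b (1.04) and Marcksl1 (0.955) had intervals or values close to 1. The median log2 ratio of the 7 was -0.30, against -0.01 over 9762 genes. Past the fold downwards was 1 gene of the 7, against 10.7% of all genes, and upwards 0, against 8.91%, so the count for the 7 is near the background.

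The lower Angptl2 level at 12 weeks was seen on both sides of the Lag3 limit and in Foxp3-positive cells. The ratio was 0.54 (0.435 to 0.67) in Lag3-high cells, 0.674 (0.548 to 0.831) in Lag3-low cells and 0.502 (0.304 to 0.804) in Foxp3-positive cells. Nrn1 was lower in Lag3-high cells (0.456, 0.331 to 0.625), with the 50-UMI cell on the 7 week side, and at 0.969 in Lag3-low cells. Izumo1r was at 1.33 in Lag3-high cells, 0.846 in Lag3-low cells and 1.57 in Foxp3-positive cells. In the same gate, summed acinar cell RNA was at 2.51 UMIs per 10000 at 12 weeks against 0.225 at 7 weeks, with 12 of 12 measured markers higher. Macrophage RNA was at 36.7 against 7.29 (9 of 10 markers higher), B cell RNA at 49.5 against 29.1, endocrine RNA at 1.68 against 0.385 (4 of 5 higher) and natural killer RNA at 1.99 against 3.5 (0 of 9 higher, 6 lower). Their part in the age ratios was not tested. Without the MHC class II-high cells Angptl2 was at 101 against 166 CPM.

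Listed genes past the fold between the ages are counted next. Over all 9762 genes, 8.91% were past this single ratio upwards and 10.7% downwards. Of 19 measured anergy regulators, 5 were lower at 12 weeks, namely Tob1 (0.21), Nr4a1 (0.516), Nr4a2 (0.414), Nr4a3 (0.379) and Nfatc1 (0.562), and Ndrg1 was higher (3.11). Of 8 adenosine genes, Entpd1 (1.62) and Dpp4 (1.53), whose product anchors adenosine deaminase at the cell surface in humans, were higher and 0 lower. Of 14 genes of naive and memory T cells 5 were higher at 12 weeks, among them Ccr7 (1.87), Lef1 (1.84) and Il7r (2.2), and 0 were lower. A Ccr7 or Lef1 UMI was found in 64% of Foxp3-negative CD4 T cells at 12 weeks against 55% at 7 weeks.

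Co-occurrence within cells was measured on counts thinned to 2500 UMIs per cell, because deeper cells hold any pair of genes more often. The ratio used cannot exceed the inverse of the share of cells with the more frequent gene, so pairs with Izumo1r or Tbc1d4 have a lower ceiling and the ratios of different pairs or subsets are not ranked. In Foxp3-negative CD4 T cells the number of cells with both genes, divided by the number expected if the genes were spread independently, was above 1 for 21 of 21 pairs at 12 weeks and 18 of 21 at 7 weeks. The median was 1.95 (range 1.19 to 2.69) and 1.38 (0.821 to 2.45). Co-detection was at least 1.5 times expectation for 18 and 6 pairs, and for 6 at both ages. These were Nt5e with Tbc1d4 (1.76 and 1.56), Nt5e with Angptl2 (2.19 and 1.78), Nrn1 with Angptl2 (2.24 and 1.69), Nrn1 with Gpm6b (2.4 and 2.45), Tbc1d4 with Angptl2 (1.89 and 1.66) and Angptl2 with Marcksl1 (2.58 and 1.59). Angptl2 took part in 4 of the 6.

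For the named surface pair, co-detection was above expectation at both ages. Izumo1r and Nt5e were both found in 54 cells at 12 weeks, where 34 were expected, and in 36 cells at 7 weeks, where 25.7 were expected (1.59 and 1.4). Izumo1r was detected in 65.1% (53.8 to 75.2) and 65.5% (51.4 to 77.8) of cells with Nt5e, against 37.9% and 42.4% of cells without it. Tbc1d4 was detected in 75% and 81.2% of cells with Angptl2, against 35.1% and 40.2% of those without. Nrn1 and Gpm6b were together in 23 and 16 cells, where 9.57 and 6.53 were expected. Below expectation at 7 weeks were Nt5e with Nrn1 (0.821), Nt5e with Marcksl1 (0.925) and Izumo1r with Marcksl1 (0.994).

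**Figure D5:**
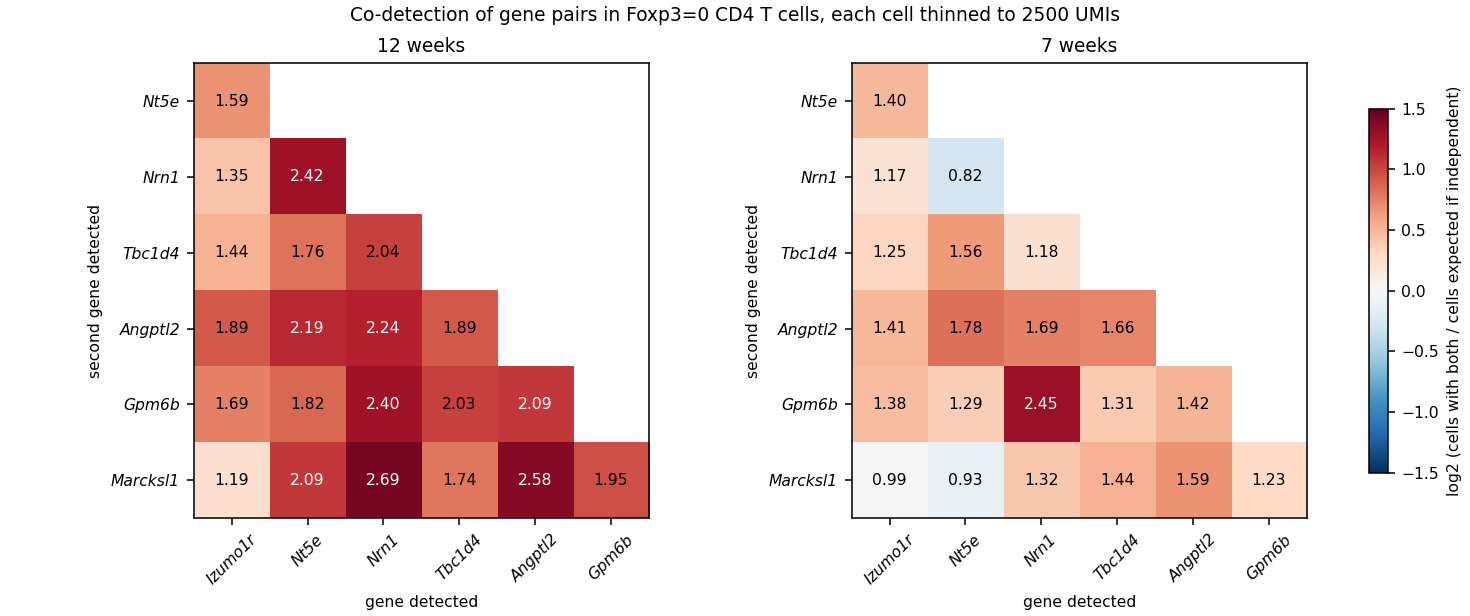
Observed over expected number of Foxp3-negative CD4 T cells holding both genes of each of the 21 pairs, on counts thinned to 2500 UMIs per cell, at 12 weeks (left) and 7 weeks (right). Every square of the 12 week map is above 1, and the 7 week map is paler, with 3 pairs below 1.

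Co-detection was also counted inside subsets. Among Lag3-high cells the median over the pairs was 1.19 and 0.972, and 1 pair was past 1.5 at both ages, against 2.19 and 1.56 and 12 pairs among Lag3-low cells. Izumo1r was detected in 98 of 121 and 37 of 57 Lag3-high cells, and Tbc1d4 in 70 and 40. The ceiling is therefore low for pairs with these genes, and medians that include such pairs cannot be compared. Pairs without them have a higher ceiling. Nrn1 with Angptl2 was at 0.798 and 0.953 in Lag3-high cells and 3.3 and 2.06 in Lag3-low cells. Nt5e with Marcksl1 was at 1.48 and 0.958 against 2.23 and 0.933. These differences were not tested. Without MHC class II-high cells the median was 2.03 and 1.35 with 6 pairs at both ages. Without cells holding a Ccr7 or Lef1 UMI as well (229 and 121 cells left), it was 1.33 and 1.07, with 0 pairs at both ages. Levels in cells without such a UMI against cells with one were taken over the whole gate, MHC class II-high cells included. Tbc1d4 was at 459 against 294 CPM at 12 weeks and at 551 against 360.4 CPM at 7 weeks. Angptl2 was at 131 against 65.9 CPM and 212 against 112 CPM, and Izumo1r at 447 against 333 CPM and 435 against 344 CPM. Nt5e was at 65.7 against 42.8 CPM and 88.7 against 57.1 CPM, and Gpm6b at 157 against 58.9 CPM and 103 against 84.4 CPM. Marcksl1 was at 192 against 67.3 CPM and 159 against 92.2 CPM. MHC class II-high cells held 217 of its 500 UMIs at 12 weeks. Nrn1 was at 62.6 against 68.1 CPM and 77.6 against 99.3 CPM.

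Counted per cell, 3 or more of the 7 genes were found in 23% (20 to 26.2) and 34.2% (28.9 to 39.9) of Foxp3-negative CD4 T cells after thinning, against 2.75% and 0.568% of CD8 T cells and 0.297% of B cells at 12 weeks and 0 of 183 at 7 weeks. None was found in 37.4% and 25.2% of Foxp3-negative CD4 T cells, so a large part of the gate showed none of these transcripts at this depth. In Lag3-high cells 49.6% (40.4 to 58.8) and 66.7% (52.9 to 78.6) had 3 or more, against 17.7% (14.7 to 20.9) and 26.6% (21.1 to 32.6) of Lag3-low cells. In Cxcr5-positive cells it was 45.8% and 53.7%, against 20% and 31.1% of cells without Cxcr5.

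Cells with a thinned UMI of both Izumo1r and Nt5e (double-positive) numbered 54 at 12 weeks and 36 at 7 weeks, or 7.43% (5.63 to 9.58) and 12.1% (8.61 to 16.3) of Foxp3-negative CD4 T cells. Before thinning the shares were 16% and 26.8%. Without cells holding an Il2ra or Ikzf2 UMI the thinned shares were 4.09% and 6.08%. The thinned shares were 1.48% and 0% of CD8 T cells and 0% and 0% of B cells, where, at the thinned depth, 0 of 176 CD8 T cells allows up to 1.7%, and 0 of 674 and 0 of 183 B cells allow up to 0.445% and 1.64%. Before thinning they were 4.45% and 3.98% of CD8 T cells and 0.297% and 0.546% of B cells. In Foxp3-positive CD4 T cells they were 14% and 6.67%. Within the Foxp3-negative gate, 19.8% (13.1 to 28.1) and 19.3% (10 to 31.9) of Lag3-high cells were double-positive, against 4.95% (3.36 to 6.99) and 10.4% (6.83 to 14.9) of Lag3-low cells. A double-positive cell is not thereby shown to be anergic, since the pair was read from sparse counts and no response was measured.

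Double-positive cells also carried more of the other CD4 genes than the 400 and 140 double-negative ones. Tbc1d4 was at 768 CPM in double-positive cells against 219 CPM in double-negative cells at 12 weeks (3.51) and at 751 against 333 CPM at 7 weeks (2.25). Angptl2 was at 246 against 40.3 CPM (6.09) and 195 against 116 CPM (1.67), and Gpm6b at 220.1 against 43.2 CPM (5.1) and 95 against 58.5 CPM (1.62). All of these were further apart at 12 weeks than at 7 weeks. Nrn1 had ratios of 4.29 and 1.2, and Marcksl1 of 1.16 and 0.435, so neither passed the fold at both ages. Izumo1r (14.3 and 11.5) and Nt5e (17.9 and 8.76) set the gate. With that pair, 5 of the 7 genes were past the fold upwards, against 6.96% of 5990 genes, and 0 downwards, against 5.73%. Without MHC class II-high cells Angptl2 was at a ratio of 5.05 and 1.43. In that setting 4 genes, the gate-setting pair among them, were past the fold, against 6.66% of 5450 genes.

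The genes furthest up in double-positive cells included Il10 (87.5 against 7.4 CPM at 12 weeks and 86 against 5.4 CPM at 7 weeks), the Helios gene Ikzf2 (387 against 88 CPM and 479.6 against 115 CPM), the transcription factor Maf (463 against 104 CPM and 412 against 103 CPM) and Lag3 (895 against 132 CPM and 498 against 180.1 CPM). Helios is found in regulatory T cells and Maf drives Il10 in several T helper subsets. The others were Dst, Smco4, Lbh, Tox2, Tbc1d4 and Ctla4. Without MHC class II-high cells, 7 of these 10 were again among the 10 furthest up, Il10, Ikzf2, Maf and Lag3 with them. The genes furthest down in the whole gate were led by Cd74, Apoe and other antigen-presenting cell genes, and 2 of the 10 were shared once the MHC class II-high cells were left out. The list was then led by Igfbp4, Dapl1, Satb1 and Lef1, followed further down by Il7r and Ccr7, all on the list of naive and memory T cell genes. Igfbp4 had no UMI in double-positive cells of either library, against 342 and 215 CPM in double-negative cells.

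Described by lists, 5 of 16 anergy regulators were higher in double-positive cells and 0 lower: Cblb (1.77 and 1.6), Egr2 (1.82 and 1.51), Dgkz (2.37 and 1.99), Nr4a2 (2.98 and 2.14) and Ikzf3 (3.12 and 3.09). Of 6 adenosine genes the kinase Adk (1.8 and 1.73) and the nucleoside transporter Slc29a1 (2.67 and 1.92) were higher and 0 lower. Regulatory T cell genes were higher for 6 of 8 and lower for 0, with a median log2 ratio of 1.57 and 1.02, and their part was not tested. Inhibitory receptors were higher for 6 of 11 and lower for 1, follicular helper genes higher for 8 of 13 with Il21 at 9.88 and 3.1, and naive and memory T cell genes lower for 7 of 14 and higher for 1. Summed macrophage marker RNA was at 0.903 and 0.769 UMIs per 10000 in double-positive cells, against 65 and 13.1 in double-negative cells, and B cell marker RNA at 2.74 and 2.04 against 86.8 and 51.1. Without MHC class II-high cells 4 of 15 anergy regulators were higher and 0 lower. Without cells holding a Ccr7 or Lef1 UMI as well, which left 31 and 26 double-positive and 79 and 42 double-negative cells, it was 0 of 10.

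Patterns across single Foxp3-negative CD4 T cells placed the 7 genes beside overlapping neighbours. The measure was Pearson's r of log counts over 727 and 298 thinned cells, taken as the lower of both libraries among 4172 genes. All values rest on sparse counts of cells that share a library, and they are a description. For Tbc1d4 the nearest were Prkca (0.31 and 0.36), Cd200 (0.40 and 0.31) and Tnfsf8 (0.37 and 0.30), and for Angptl2 Cd200 (0.40 and 0.36), Rilpl2 (0.32 and 0.35) and Srgn (0.31 and 0.32). For Izumo1r they were Ikzf2 (0.35 and 0.38), Maf (0.38 and 0.35) and Lag3 (0.46 and 0.29), and for Gpm6b Tnfsf8 (0.36 and 0.26), Lag3 (0.31 and 0.25) and Cd200 (0.29 and 0.25). Cd200 stood near 4 of the genes, Nrn1 included (0.27 and 0.26), and Lag3 near 3. Nt5e was nearest to Tbc1d4 (0.24 and 0.26), Ap1s2 and Lag3, and Marcksl1 to Rilpl2 (0.23 and 0.31), Cd83 and Tbc1d4.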

How the data were processed

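Single-cell RNA of 2 libraries, 1 per age, was read from the matrices that the authors deposited, which hold raw UMI counts per gene and barcode (Cell Ranger 1.3.1, mm10, per the submitters' processing notes). The matrices held 2812 barcodes and 19288252 UMIs at 12 weeks and 1113 barcodes and 8701184 UMIs at 7 weeks. Barcodes with at least 200 genes and at most 10% mitochondrial UMIs were kept, which removed 8 and 4. Doublets were scored by the Scrublet method (2 simulated doublets per barcode, 30 principal components, 2000 variable genes), and the highest scores were removed at a loading rate of 0.8% per 1000 barcodes in both libraries (63 and 10 barcodes). This threshold had been listed as an alternative and became the main one so that the libraries were treated alike.

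UMIs were summed per gate and library. Sums carry exact Poisson intervals, ratios exact conditional binomial intervals and shares Clopper-Pearson intervals, all 95%, and cover counting error only. A share of 0 allows up to 3 cells. No test was run, since each age is 1 library. A gene was past the fold at a CPM ratio of at least 1.5, or at most its inverse, in both libraries (between ages, in the single ratio), among genes with at least 20 UMIs over both gates in each library. Genes named were the 7, the 3 genes nearest to each by r among genes with a UMI in at least 5% of cells, the 10 furthest up and down by the interval bound nearest to 1, and list members. The 7 genes and the lists were chosen with earlier results of these data known. One list member is not reported here and was left out of the counts. The self-written calculations were tested on simulated data. Python 3.11.15, numpy 2.4.6, scipy 1.17.1, pandas 2.3.3, scikit-learn 1.9.0 and matplotlib 3.10.9 were used.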

Additional observations from a re-analysis of the deposited data

Results flagged for a closer look

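Among the comparisons of Foxp3, Lag3 and Cxcr5 over the whole gate and of double-positive cells, a gene's log2 ratio had opposite signs in the 2 libraries in 6 cases, and the difference between the libraries was not tested in any of them. Comparisons inside subsets of the gate are not counted here. For Foxp3-positive over Foxp3-negative CD4 T cells, Nt5e was at 0.69 at 12 weeks and -0.66 at 7 weeks, and Nrn1 at 0.53 and -2.03. For Cxcr5-positive over Cxcr5-negative cells, Izumo1r was at 0.60 and -0.20, Nrn1 at 0.53 and -0.57, and Marcksl1 at -0.16 and 1.16. Without MHC class II-high cells Marcksl1 was higher with Cxcr5 at both ages (83.5 against 70.2 CPM and 217 against 75.8 CPM). In Lag3-low cells Nrn1 was higher at both ages (0.59 and 0.73). Izumo1r kept opposite signs in each of these settings. For cells with both Izumo1r and Nt5e over cells with neither, Marcksl1 was at 0.21 and -1.20.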

How the results depend on the processing

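No paired analysis was possible because each age is 1 library. In all, 13 alternatives were planned and 6 were chosen after seeing the data, among them the 2 that leave out MHC class II-high cells. Of the 5 genes past the fold with Lag3, 3 remained in number with at least 2 Cd4 UMIs per cell, 3 without cells holding a UMI of the naive genes Ccr7 or Lef1, and 2 without these and MHC class II-high cells. Of the 2 with Cxcr5, 1 was counted with stricter T cell gates, 1 with at least 2 Cd4 UMIs and 1 without each gene's top 5 cells, against 4 in cells without Il2ra and Ikzf2 UMIs and 4 in Lag3-low cells. Between ages, 2 genes were lower in cells without Il2ra and Ikzf2 UMIs, 2 without cycling cells, 2 by the mean per cell, 2 in Lag3-high cells and 0 in Lag3-low cells. Of the 5 in double-positive cells, 4 were counted without cells holding a naive gene UMI and 3 without MHC class II-high cells as well. Each of these counts includes Izumo1r and Nt5e, which set the gate, and the last stands against 2.64% of 2805 genes. The 6 pairs became 18 without Il2ra and Ikzf2 UMIs, 12 in Lag3-low cells, and 0 without naive gene UMIs, with or without MHC class II-high cells. The double-positive share was 4.09% at 12 weeks and 6.08% at 7 weeks without Il2ra and Ikzf2 UMIs, 11.7% and 20.2% at 4000 UMIs, 16% and 26.8% unthinned, and 11.8% and 19.4% without naive gene UMIs. Reversed log2 ratios were -0.12 for Nt5e at 7 weeks and -0.01 for Tbc1d4 at 12 weeks with Lag3 (both without MHC class II-high and naive gene cells), -0.46 for Marcksl1 with Cxcr5 at 7 weeks and 0.71 for Marcksl1 in double-positive cells at 7 weeks (both without Il2ra and Ikzf2 UMIs). Without each gene's top 5 cells, reversed values with Cxcr5 were -0.15 for Marcksl1 and -0.06 for Angptl2 at 7 weeks and -0.40 for Nrn1 at 12 weeks, and Nrn1 between ages was at 0.23. The cause was not tested. Of the other single-gene values, 440 planned ones moved by less than their interval and 123 by more. Under the alternatives chosen after seeing the data, 112 moved by less than their interval and 52 by more. Small gates limit precision: the Foxp3-positive gate holds 50 and 45 cells.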
